A study of Saccharomyces cerevisiae with 18 samples.

Results

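A set of 8 genes of gluconeogenesis, the glyoxylate cycle and the use of acetate and lactate was followed in budding yeast that lacked a subunit of the R2TP complex. They were chosen by name for their place in these pathways, with earlier results of these data known. They are MDH2 (YOL126C), PCK1 (YKR097W) and FBP1 (YLR377C) of gluconeogenesis, ICL1 (YER065C), MLS1 (YNL117W) and CIT2 (YCR005C) of the glyoxylate cycle, ACS1 (YAL054C) for acetate and JEN1 (YKL217W) for lactate. All 8 had a row among the 7126 features of the deposited tables. All 8 were also among the 5825 features tested, which had a mean normalized count of at least 10 over the 18 libraries. There were 6 groups of 3 biological replicates. In strains with tagged Rvb2 the cells had a PIH1 deletion, a TAH1 deletion or were wild type at both genes, and the same 3 genotypes were made with tagged Rvb1. Every strain, wild types included, was of the BY4741 background and carried 1 of the 2 tags, so no untagged cells were compared. Cultures of 5 ml were shaken in YPD, a rich medium with glucose, at 30 °C and collected at an OD600 between 1.2 and 1.5, and RNA with a poly(A) tail was sequenced. The labels do not say which tag was used or whether the replicates of a group came from 1 clone.

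Gluconeogenesis turns compounds with few carbon atoms back into hexose. In yeast it needs malate dehydrogenase in the cytosol (Mdh2), which interconverts malate and oxaloacetate. Gluconeogenesis also needs phosphoenolpyruvate carboxykinase (Pck1) and fructose-1,6-bisphosphatase (Fbp1), since the steps of glycolysis that match Pck1 and Fbp1 run only one way. The glyoxylate cycle, with isocitrate lyase (Icl1), malate synthase (Mls1) and the peroxisomal citrate synthase Cit2, supplies it from acetyl-CoA, which Acs1 makes from acetate, and Jen1 carries lactate and pyruvate into the cell. Most of these genes are known to be repressed in glucose and switched on by Cat8, Sip4 and Adr1 once the Snf1 kinase is active. CIT2 is known as a target of the retrograde pathway from mitochondria to nucleus, through Rtg1 and Rtg3. Rvb1 and Rvb2 are AAA+ ATPases that sit in chromatin remodellers and that bind Pih1 and Tah1 in R2TP, a co-chaperone of Hsp90.

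The 8 genes lie on 7 chromosomes of the sacCer3 build, each as 1 coding exon with no annotated gene overlapping it on either strand. On the minus strand lie MDH2 (chrXV:81787-82920), FBP1 (chrXII:873746-874792), ICL1 (chrV:285241-286914), CIT2 (chrIII:120946-122328) and ACS1 (chrI:42881-45022). On the plus strand lie PCK1 (chrXI:631152-632801), JEN1 (chrXI:22234-24084) and MLS1 (chrXIV:406358-408022). The 600 bases before each start codon were searched on both strands for the core of the carbon source response element, which Cat8 and Sip4 bind, spelled CCNNNNNNCCG. It was found before 6 of the 8 genes and not before CIT2 or JEN1. There were 6 matches before MLS1, 4 before MDH2, 3 each before PCK1, FBP1 and ACS1 and 1 before ICL1. Of 5999 such windows in the genome, 24.7% held it. These sites are shown because 6 of the 8 genes share them. For each gene the match with the most bases in common with that of ICL1 is given, or the one nearest to the start codon where several tie. Each is written 5′ to 3′ on the strand that spells the motif, with 20 bases on each side and the core in capitals.
ICL1, chrV:287282-287332, minus strand: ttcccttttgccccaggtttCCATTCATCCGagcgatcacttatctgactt
PCK1, chrXI:630651-630701, plus strand: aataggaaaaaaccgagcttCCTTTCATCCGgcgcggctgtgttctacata
FBP1, chrXII:875266-875316, plus strand: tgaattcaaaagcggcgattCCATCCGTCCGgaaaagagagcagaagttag
MLS1, chrXIV:405807-405857, minus strand: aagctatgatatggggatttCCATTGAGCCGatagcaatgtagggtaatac
ACS1, chrI:45417-45467, plus strand: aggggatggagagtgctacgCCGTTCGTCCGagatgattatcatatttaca
MDH2, chrXV:83267-83391, minus strand, the stretch of 125 bases with all 4 matches, the first 2 of them spelled on the other strand: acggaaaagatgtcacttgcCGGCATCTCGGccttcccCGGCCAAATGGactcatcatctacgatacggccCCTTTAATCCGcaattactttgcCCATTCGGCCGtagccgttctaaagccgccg

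CIT2, which had no such core, had 3 matches to GTCAC, the R box that Rtg1 and Rtg3 bind. A match to this short motif was also found 2 times before MDH2 and ICL1 and once before ACS1, and 49.2% of the 5999 windows held at least 1. The 3 matches before CIT2 are shown with 20 bases on each side and the R box in capitals.
CIT2, chrIII:122649-122693, minus strand: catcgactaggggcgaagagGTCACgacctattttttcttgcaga
CIT2, chrIII:122616-122660, plus strand: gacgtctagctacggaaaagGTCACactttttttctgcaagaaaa
CIT2, chrIII:122500-122544, plus strand: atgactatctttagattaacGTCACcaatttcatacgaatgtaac
Cores of the Mig1 site (GCGGGG, or the same with GT, CC or CT as its first 2 bases) were found before 6 of the 8 genes, all but ACS1 and JEN1, and in 27.8% of all windows. The Mig1 core before MDH2 overlapped 1 of its 4 carbon source cores. None of these matches is evidence of binding.

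The deposited values are scaled per library and sum to 4829249 to 5412654 normalized counts, so the sequencing depth itself is not shown by them. The deleted genes were low where the labels say so: PIH1 averaged 3.0 ± 2.0 in the Rvb2-tagged PIH1 deletion against 140.3 ± 17.9 in its wild type, and 6.0 ± 3.0 in the Rvb1-tagged PIH1 deletion against 156.7 ± 9.24 in its wild type. TAH1 was at 0 in the 3 Rvb2-tagged TAH1 deletion libraries against 184.7 ± 14.1 in their wild type, and averaged 2.33 ± 0.577 in the Rvb1-tagged TAH1 deletion against 175.3 ± 16.7 (SD, n = 3 each). Transcripts of the tagged proteins themselves were lower in the deletions. RVB2 averaged 311.3 and 520.7 in the Rvb2-tagged PIH1 and TAH1 deletions against 882.3 in their wild type, and RVB1 averaged 657.3 and 501.0 in the Rvb1-tagged PIH1 and TAH1 deletions against 975.0. The transcript of the untagged partner was higher in 3 of the 4 deletions. RVB1 averaged 1647 and 1639 in the Rvb2-tagged PIH1 and TAH1 deletions against 902.7 in their wild type (log2 changes 0.88 ± 0.08 and 0.87 ± 0.08 SE, adjusted p = 9.4e-08 and 1.7e-07, limma). RVB2 averaged 1043 in the Rvb1-tagged PIH1 deletion against 916.3 in its wild type (0.19 ± 0.07, adjusted p = 0.044), and did not pass in the Rvb1-tagged TAH1 deletion (0.04 ± 0.07, adjusted p = 0.72). The part of these transcripts in the results on the 8 genes was not tested. A pair of libraries need care. Replicate 1 of the Rvb2-tagged wild type has conflicting labels, since the title gives Rvb2 and the source field Rvb1, and the title was used here. Replicate 2 of the Rvb1-tagged wild type lay farther from its group than any other library, with a root mean square deviation of 0.403 on the log2 scale against 0.155 to 0.306 for the other 17. The results on the 8 genes that move without either are named where they stand.

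MDH2 was called lower in all 4 deletion strains, as 1 of 99 such genes among the 5825 tested. This held for none of the other 7 genes of the set. In the Rvb2-tagged PIH1 deletion 5 of the 8 genes were higher than in the wild type (PCK1, FBP1, ICL1, MLS1 and ACS1) and 1 was lower (MDH2), where 69.6% of all genes tested passed the threshold, an adjusted p under 0.05 with limma. In the Rvb2-tagged TAH1 deletion 2 were higher (ICL1 and JEN1) and 1 was lower (MDH2), against 44.4% of all genes. In the Rvb1-tagged PIH1 deletion 2 were higher (FBP1 and CIT2) and 3 were lower (MDH2, ACS1 and JEN1), against 38.0% of all genes. In the Rvb1-tagged TAH1 deletion MDH2 alone passed, and it was lower, against 10.8% of all genes. These counts are near the shares of all genes, except in the Rvb1-tagged PIH1 deletion, where 5 of the 8 genes passed. With only 8 genes that count is not a result about the set, and 4 to 6 passed under other settings. The median log2 change of the 8 was 0.56 in the Rvb2-tagged PIH1 deletion against 0.01 over all genes tested. It was 0.09 against 0.02 in the Rvb2-tagged TAH1 deletion. With tagged Rvb1 it was -0.47 against 0.01 in the PIH1 deletion and -0.05 against 0.00 in the TAH1 deletion. In the Rvb2-tagged and Rvb1-tagged PIH1 deletions, genes with a mean count from 10 to 50 had medians of 0.30 and -0.14. From 50 to 200, where FBP1, ACS1 and JEN1 lie, the medians were -0.02 and -0.08. In the Rvb1-tagged PIH1 deletion 9.81% of the genes from 50 to 200 were called higher and 25.6% lower. The part of abundance in the medians of the 8 was not tested. The PIH1 and TAH1 deletions of 1 background were set against the same 3 wild type libraries. Of all genes tested, 71.7% had no overlap between the Rvb2-tagged PIH1 deletion and its wild type. This share was 53.5% for the Rvb2-tagged TAH1 deletion, 42.7% for the Rvb1-tagged PIH1 deletion and 22.5% for the Rvb1-tagged TAH1 deletion. A lack of overlap in a gene named below is to be read beside these shares.

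**Figure D1:**
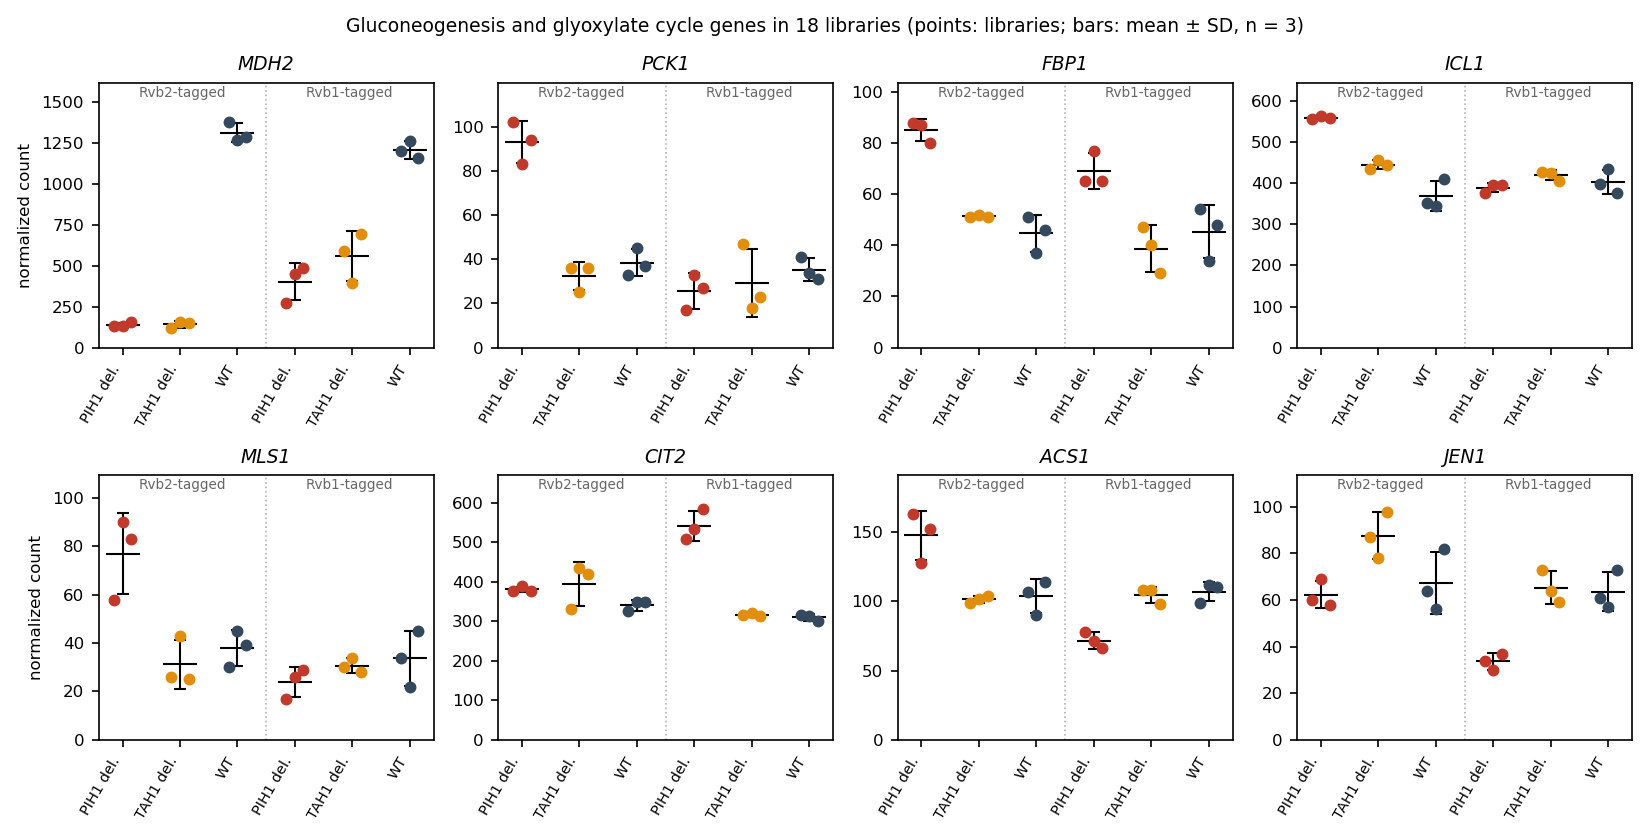
Normalized count (vertical axis, from 0) of the 8 genes in each of the 18 libraries, with 1 panel per gene. Points are libraries, and bars are the mean ± SD of 3 libraries, with the deletions left of their wild type. MDH2 lies between 117 and 157 in the 6 Rvb2-tagged deletion libraries and between 1272 and 1381 in their wild type, while PCK1, FBP1, ICL1, MLS1 and ACS1 are higher in the Rvb2-tagged PIH1 deletion than in its wild type.

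Per kb of coding length, MDH2 was by far the most abundant of the 8 genes in both wild types and, by its mean, lost that place in 3 of the 4 deletion strains. In the Rvb2-tagged PIH1 deletion ICL1 led with 334.7 ± 2.10 normalized counts per kb, followed by CIT2 with 275.7 ± 4.81, and MDH2 was at rank 3 with 121.1 ± 12.7. FBP1 (81.2 ± 4.16), ACS1 (68.9 ± 8.36), PCK1 (56.4 ± 5.78), MLS1 (46.2 ± 10.1) and JEN1 (33.7 ± 3.17) came next. Each of these overlapped its neighbour in this order within 1 SD. In the Rvb2-tagged TAH1 deletion CIT2 with 286.1 ± 40.3 and ICL1 with 266.2 ± 6.33 counts per kb overlapped within 1 SD, and MDH2 was at rank 3 with 125.2 ± 19.2. FBP1, ACS1 and JEN1 lay close together there, between 47.4 and 49.0 counts per kb, above PCK1 (19.6 ± 3.85) and MLS1 (18.8 ± 6.08). In their wild type MDH2 averaged 1158 ± 52.1 counts per kb, ahead of CIT2 with 246.3 ± 9.82 and ICL1 with 220.6 ± 21.7, which overlapped within 1 SD. ACS1 (48.4 ± 5.76), FBP1 (42.7 ± 6.78) and JEN1 (36.4 ± 7.20) followed, each overlapping its neighbour within 1 SD, and PCK1 (23.2 ± 3.70) and MLS1 (22.8 ± 4.54) were lowest and also overlapped.

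With tagged Rvb1, CIT2 with 391.9 ± 27.9 and MDH2 with 356.3 ± 100.7 counts per kb led the PIH1 deletion and did not differ beyond their spread. In the Rvb1-tagged TAH1 deletion MDH2 stayed first with 494.1 ± 135.4, ahead of ICL1 with 251.1 ± 7.0 and CIT2 with 228.7 ± 3.01. In their wild type MDH2 averaged 1065 ± 47.8, ahead of ICL1 with 240.7 ± 17.5 and CIT2 with 224.2 ± 6.43, which overlapped within 1 SD (SD, n = 3 throughout). PCK1 and MLS1 were the lowest 2 of the 8 in all 3 Rvb1-tagged groups, between 14.4 and 21.4 counts per kb, and overlapped each other within 1 SD in each.

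**Figure D2:**
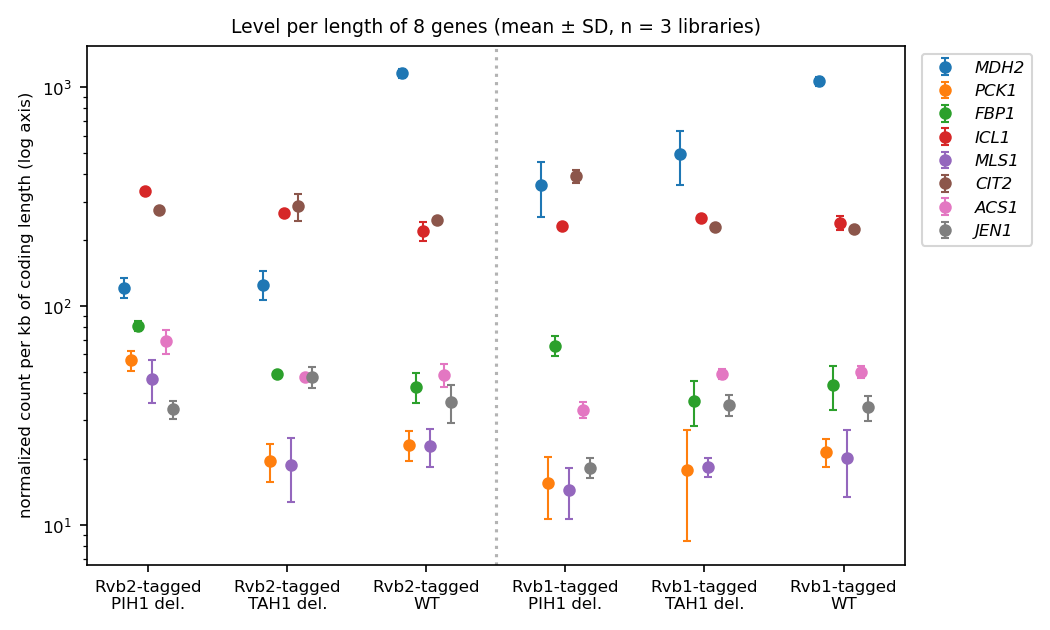
Level of the 8 genes as normalized count per kb of coding length (log axis) in the 6 groups, as mean ± SD of 3 libraries. MDH2 is below ICL1 and CIT2 in both Rvb2-tagged deletions, and above the other 7 in the Rvb1-tagged TAH1 deletion and in both wild types.

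MDH2 encodes the malate dehydrogenase of the cytosol, which interconverts malate and oxaloacetate, the substrate of Pck1. Its normalized counts were 129, 129 and 154 in the Rvb2-tagged PIH1 deletion and 117, 157 and 152 in the Rvb2-tagged TAH1 deletion, against 1381, 1272 and 1287 in the Rvb2-tagged wild type. Both deletions lay far below the wild type, with no overlap, and their own ranges overlapped each other. The ratio of means was 9.56-fold lower in the PIH1 deletion (log2 change -3.25 ± 0.20 SE, adjusted p = 6.3e-10, limma) and 9.25-fold lower in the TAH1 deletion (-3.21 ± 0.20, adjusted p = 5.6e-10). Ranked by log2 change, MDH2 was the 19th lowest of 5825 genes in the PIH1 deletion and the 4th lowest in the TAH1 deletion. With tagged Rvb1 its counts were 274, 450 and 488 in the PIH1 deletion and 593, 393 and 695 in the TAH1 deletion, against 1202, 1265 and 1157 in the wild type. All 6 Rvb1-tagged deletion libraries were below their wild type and above all 6 Rvb2-tagged deletion libraries, and they were more spread than the other groups. The ratio of means was 2.99-fold lower in the Rvb1-tagged PIH1 deletion (-1.62 ± 0.20, adjusted p = 1.1e-05) and 2.16-fold lower in the Rvb1-tagged TAH1 deletion (-1.15 ± 0.20, adjusted p = 0.0011), and MDH2 was the 36th and the 24th lowest gene there. MDH2 kept its direction and an adjusted p under 0.05 in all 4 comparisons under every alternative tried, including without either library named above.

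PCK1, whose enzyme makes phosphoenolpyruvate from oxaloacetate, and FBP1, whose enzyme removes a phosphate from fructose-1,6-bisphosphate, went the other way from MDH2 in the Rvb2-tagged PIH1 deletion. PCK1 had normalized counts of 102, 83 and 94 in that deletion against 33, 45 and 37 in the wild type, so that the lowest deletion library was above the highest wild type library (2.43-fold, log2 change 1.26 ± 0.29 SE, adjusted p = 0.00084, limma). In the Rvb2-tagged TAH1 deletion it had 36, 25 and 36, within or below the wild type's range (-0.25 ± 0.29, adjusted p = 0.51). With tagged Rvb1, PCK1 had 17, 33 and 27 in the PIH1 deletion and 47, 18 and 23 in the TAH1 deletion against 41, 34 and 31 in the wild type. Both deletions overlapped the wild type and neither passed (-0.49 ± 0.29, adjusted p = 0.19, and -0.37 ± 0.29, adjusted p = 0.43).

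FBP1 had normalized counts of 88, 87 and 80 in the Rvb2-tagged PIH1 deletion, 51, 52 and 51 in the Rvb2-tagged TAH1 deletion and 51, 37 and 46 in their wild type. It was higher in the PIH1 deletion with no overlap (1.90-fold, log2 change 0.92 ± 0.18 SE, adjusted p = 0.00023, limma) and did not pass in the TAH1 deletion (0.21 ± 0.18, adjusted p = 0.37). With tagged Rvb1 it had 65, 77 and 65 in the PIH1 deletion and 47, 40 and 29 in the TAH1 deletion against 54, 34 and 48 in the wild type. The Rvb1-tagged PIH1 deletion was higher here too (1.52-fold, 0.62 ± 0.18, adjusted p = 0.014), but the call was lost without replicate 2 of the Rvb1-tagged wild type, the library that stands apart (0.43, adjusted p = 0.0635), and without replicate 2 of the deletion (0.54, adjusted p = 0.0588). FBP1 was the only one of the 8 to be called higher in the PIH1 deletion of both backgrounds.

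ICL1, whose enzyme splits isocitrate, had nearly the same count in all 3 libraries of the Rvb2-tagged PIH1 deletion, 557, 564 and 560, with 436, 457 and 444 in the Rvb2-tagged TAH1 deletion and 353, 344 and 411 in their wild type. The 3 groups did not overlap. ICL1 was 1.52-fold higher in the PIH1 deletion (log2 change 0.60 ± 0.07 SE, adjusted p = 6.2e-07, limma) and 1.21-fold higher in the TAH1 deletion (0.27 ± 0.07, adjusted p = 0.0037). With tagged Rvb1 it had 377, 395 and 396 in the PIH1 deletion, 429, 425 and 407 in the TAH1 deletion and 399, 434 and 376 in the wild type, which overlapped both (-0.05 ± 0.07, adjusted p = 0.62, and 0.06 ± 0.07, adjusted p = 0.59).

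MLS1, whose enzyme joins glyoxylate and acetyl-CoA to malate, is among the least abundant of the 8. It had normalized counts of 58, 90 and 83 in the Rvb2-tagged PIH1 deletion, 26, 43 and 25 in the Rvb2-tagged TAH1 deletion and 30, 45 and 39 in their wild type. The PIH1 deletion was above the wild type with no overlap (2.03-fold, log2 change 0.99 ± 0.27 SE, adjusted p = 0.0038, limma), and the TAH1 deletion did not pass (-0.29 ± 0.27, adjusted p = 0.4). With tagged Rvb1 it had 17, 26 and 29 in the PIH1 deletion and 30, 34 and 28 in the TAH1 deletion, against 34, 22 and 45 in the wild type, and neither passed (-0.45 ± 0.27, adjusted p = 0.21, and -0.08 ± 0.27, adjusted p = 0.88). Without replicate 2 of the Rvb1-tagged wild type, MLS1 was lower in the Rvb1-tagged PIH1 deletion (-0.72, adjusted p = 0.0369). In the Rvb2-tagged PIH1 deletion, 37.9% of the 531 genes with a mean count from 10 to 50, the range that holds PCK1 and MLS1, were called higher and 13.6% lower, and their median log2 change was 0.30. The part of low abundance in the rise of these genes was not tested.

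CIT2, the citrate synthase of peroxisomes, was called in the PIH1 deletion with tagged Rvb1 and not in that with tagged Rvb2. With tagged Rvb2 it had normalized counts of 377, 389 and 378 in the PIH1 deletion and 332, 436 and 419 in the TAH1 deletion, against 325, 349 and 348 in the wild type. Neither passed (log2 change 0.16 ± 0.08 SE, adjusted p = 0.091, and 0.21 ± 0.08, adjusted p = 0.054, limma). Without replicate 1 of the Rvb2-tagged TAH1 deletion, whose 332 was the lowest of the 3, that deletion was called higher (0.33, adjusted p = 0.00125). In the Rvb1-tagged strains CIT2 had 508, 534 and 584 in the PIH1 deletion and 315, 321 and 313 in the TAH1 deletion, against 317, 313 and 300 in the wild type. The PIH1 deletion stood clear of both (1.75-fold over the wild type, 0.80 ± 0.08, adjusted p = 2e-06), and the TAH1 deletion did not pass (0.03 ± 0.08, adjusted p = 0.85). CIT2 was the 48th highest of the 5825 genes in the Rvb1-tagged PIH1 deletion.

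ACS1, the acetyl-CoA synthetase repressed in glucose, changed in opposite directions in the PIH1 deletions of the 2 backgrounds. It had normalized counts of 163, 128 and 152 in the Rvb2-tagged PIH1 deletion, 99, 102 and 104 in the Rvb2-tagged TAH1 deletion and 107, 90 and 114 in their wild type, which makes the PIH1 deletion the highest with no overlap (1.42-fold over the wild type, log2 change 0.51 ± 0.11 SE, adjusted p = 0.00059, limma). With tagged Rvb1 it had 78, 71 and 66 in the PIH1 deletion, 108, 108 and 98 in the TAH1 deletion and 99, 112 and 110 in their wild type, which makes the PIH1 deletion the lowest with no overlap (-0.57 ± 0.11, adjusted p = 8e-04). The TAH1 deletions did not pass (-0.02 ± 0.11, adjusted p = 0.89, with tagged Rvb2 and -0.03 ± 0.11, adjusted p = 0.88, with tagged Rvb1).

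JEN1, the lactate permease, had normalized counts of 60, 69 and 58 in the Rvb2-tagged PIH1 deletion and 87, 78 and 98 in the Rvb2-tagged TAH1 deletion, against 64, 56 and 82 in their wild type. The PIH1 deletion lay inside the range of the wild type and did not pass (log2 change -0.10 ± 0.15 SE, adjusted p = 0.59, limma). The TAH1 deletion overlapped that range and was called higher by a narrow margin (1.30-fold, 0.39 ± 0.15, adjusted p = 0.047). That call was lost under 5 other settings and without each of 4 of the 6 libraries compared, 1 of them replicate 1 of the Rvb2-tagged wild type, with adjusted p from 0.0533 to 0.204. In the Rvb1-tagged strains JEN1 had 34, 30 and 37 in the PIH1 deletion and 73, 64 and 59 in the TAH1 deletion, against 61, 57 and 73 in their wild type. The PIH1 deletion was below every other library of that background (-0.90 ± 0.15, adjusted p = 0.00027), and the TAH1 deletion did not pass (0.04 ± 0.15, adjusted p = 0.89).

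**Figure D3:**
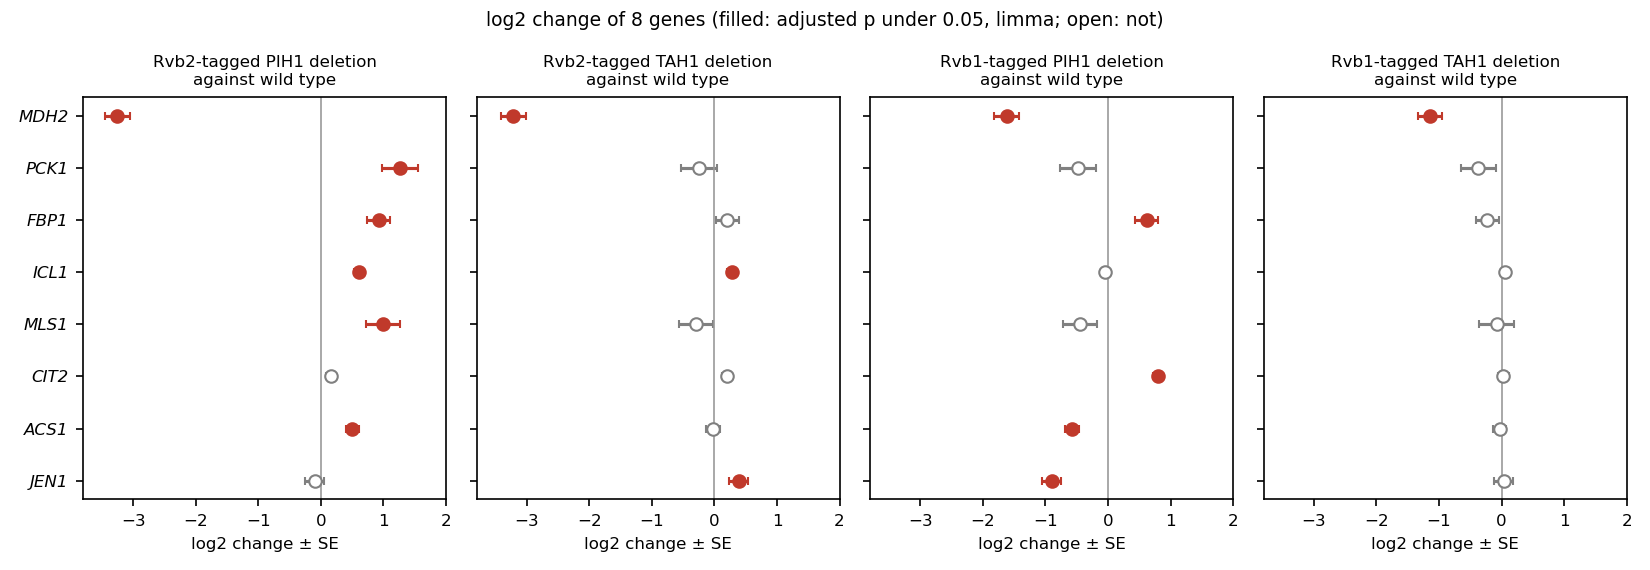
log2 change against the wild type of the same background (horizontal axis) for the 8 genes in the 4 deletion comparisons, as estimate ± SE from limma. Filled points have an adjusted p under 0.05. MDH2 is left of 0 in all 4 panels, ACS1 is right of 0 in the Rvb2-tagged PIH1 deletion and left of it in the Rvb1-tagged PIH1 deletion, and the Rvb1-tagged TAH1 deletion has 1 filled point.

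The deletions were also set against each other directly. In the Rvb2-tagged background 5 of the 8 genes were higher in the PIH1 deletion than in the TAH1 deletion (PCK1 by 1.51 ± 0.29, MLS1 by 1.29 ± 0.27, FBP1 by 0.72 ± 0.18, ACS1 by 0.53 ± 0.11 and ICL1 by 0.33 ± 0.07 on the log2 scale, ± SE) and JEN1 was lower (-0.48 ± 0.15), where 62.3% of all genes tested passed. The JEN1 call was lost without replicate 3 of the Rvb2-tagged TAH1 deletion (-0.40, adjusted p = 0.0551). MDH2 differed by -0.04 on the log2 scale between these deletions, with a 95% confidence interval from -0.45 to 0.37 (adjusted p = 0.87). In the Rvb1-tagged background FBP1 (0.84 ± 0.18) and CIT2 (0.77 ± 0.08) were higher and ACS1 (-0.54 ± 0.11) and JEN1 (-0.94 ± 0.15) lower in the PIH1 deletion than in the TAH1 deletion, where 26.5% of all genes passed, and MDH2 did not pass (-0.48 ± 0.20, adjusted p = 0.084). That MDH2 difference depended on single libraries. It ran from -0.71 to -0.22 with 1 library left out, and was called without replicate 3 of the PIH1 deletion (-0.63, adjusted p = 0.0412) and without replicate 2 of the TAH1 deletion (-0.71, adjusted p = 0.0119).

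None of the 8 genes passed the threshold between the Rvb2-tagged and the Rvb1-tagged wild type, where 12 of 5825 genes (0.206%) did in limma. MDH2 (1272 to 1381 against 1157 to 1265) and CIT2 (325 to 349 against 300 to 317) did not overlap between them, as for 20.3% of all genes tested. The log2 differences of the 8 lay between -0.13 (ICL1) and 0.21 (MLS1), and none had an unadjusted p under 0.05. The intervals are wide for the rare transcripts, from -0.37 to 0.79 for MLS1 and from -0.49 to 0.72 for PCK1. Library weights, an alternative, called 3 of the 8.

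The change seen with a deletion was then compared between the backgrounds, as the effect with tagged Rvb2 minus that with tagged Rvb1. For the PIH1 deletion 7 of the 8 genes differed, all but FBP1, where 50.3% of all genes tested did. The fall of MDH2 was larger with tagged Rvb2 (difference -1.63 ± 0.28 SE on the log2 scale, adjusted p = 0.00017, limma). PCK1 (1.75 ± 0.41), MLS1 (1.44 ± 0.39), ACS1 (1.08 ± 0.16), JEN1 (0.80 ± 0.22) and ICL1 (0.65 ± 0.10) had a higher log2 change with tagged Rvb2. CIT2 had a lower one (-0.64 ± 0.12). The median of this difference was 0.52 over the 531 genes with a mean count from 10 to 50, the range of PCK1 and MLS1. Of these genes 30.5% were called higher and 4.71% lower. For the TAH1 deletion MDH2 alone differed (-2.07 ± 0.28, adjusted p = 1.8e-05), where 24.5% of all genes did. Each tag is 1 set of strains, so the tag and anything else that differs between these sets cannot be told apart.

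Most of the 8 genes have a paralog, and many of these paralogs serve the same reaction in another compartment or condition. Some paralogs were called in the same direction as their gene and some were not. MDH1, the mitochondrial malate dehydrogenase, fell less than MDH2 in the Rvb2-tagged PIH1 deletion, to 612.7 ± 9.50 normalized counts against 2076 ± 221.5 in the wild type (log2 change -1.75 ± 0.14 SE, adjusted p = 1.2e-08, limma), and MDH3, the peroxisomal one, was at 875.3 ± 20.2 against 1227 ± 70.0 (-0.49 ± 0.06, adjusted p = 1.8e-06). Both were lower in the Rvb2-tagged TAH1 deletion too (MDH1 -0.73 ± 0.14, adjusted p = 0.00036, and MDH3 -0.25 ± 0.06, adjusted p = 0.0029). In the Rvb1-tagged PIH1 deletion MDH1 was lower (-0.63 ± 0.14, adjusted p = 0.0022) and MDH3 did not pass (0.01 ± 0.06, adjusted p = 0.93). In the Rvb1-tagged TAH1 deletion neither passed (MDH1 -0.11 ± 0.14 and MDH3 0.10 ± 0.06), where MDH2 was called lower. No paralog of the 7 was called in that comparison. CIT1, the mitochondrial citrate synthase, was at 382.0 ± 26.9 against 1490 ± 38.8 in the Rvb2-tagged PIH1 deletion and its wild type (-1.96 ± 0.17, adjusted p = 3.5e-08), where CIT2 did not pass, and it did not pass in the Rvb1-tagged PIH1 deletion (-0.22 ± 0.17, adjusted p = 0.34), where CIT2 was higher. CIT3 was higher in the Rvb2-tagged PIH1 and TAH1 deletions (0.53 ± 0.18 and 0.93 ± 0.18) and lower in the Rvb1-tagged PIH1 deletion (-0.85 ± 0.18). ICL2, the mitochondrial 2-methylisocitrate lyase, was higher in the Rvb2-tagged TAH1 deletion (1.03 ± 0.13) and lower in the Rvb1-tagged PIH1 deletion (-0.79 ± 0.13). DAL7, the second malate synthase, was higher in the Rvb2-tagged PIH1 deletion (0.75 ± 0.12, adjusted p = 4e-05), as MLS1 was. ACS2, the acetyl-CoA synthetase used in glucose, was lower in the Rvb2-tagged PIH1 and TAH1 deletions and in the Rvb1-tagged PIH1 deletion (-0.32, -0.30 and -0.24, each ± 0.06). Coding identity between a gene and its paralog ranged from 63.1% for ICL1 and ICL2 and for CIT2 and CIT3 to 75.8% for MLS1 and DAL7, and the longest run of identical bases in an alignment was 21, between CIT2 and CIT1. How the authors counted reads that fit 2 places is not given in the sources used here.

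**Figure D4:**
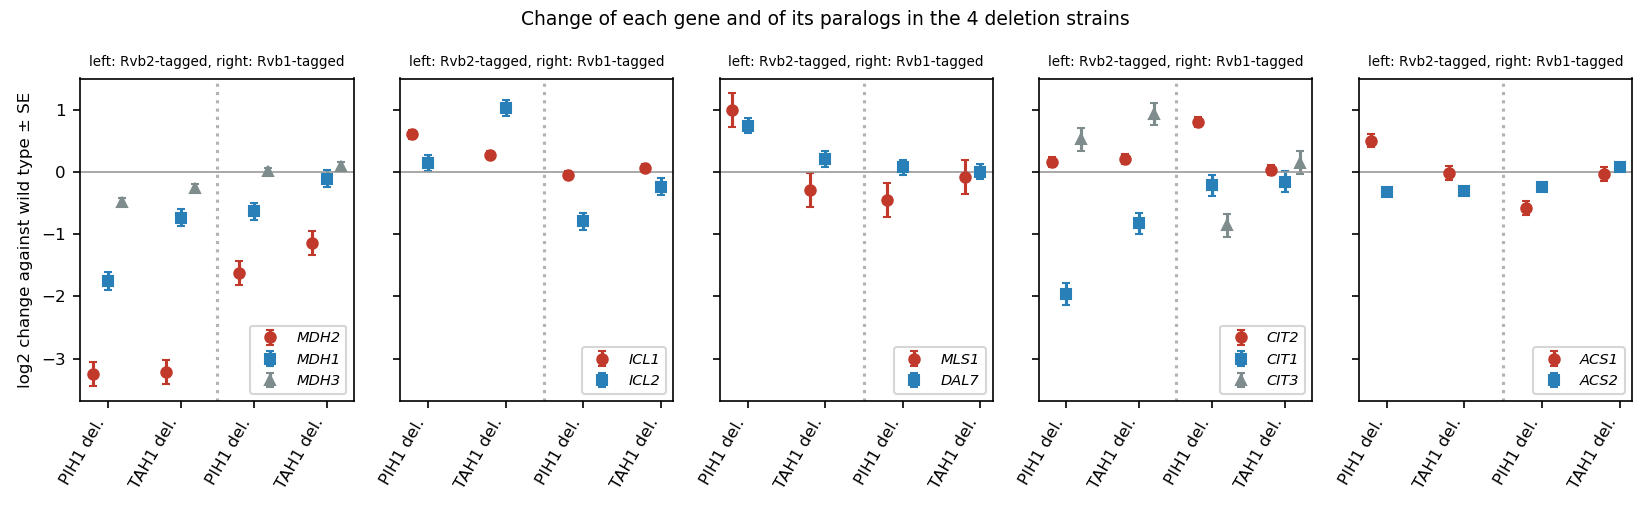
log2 change against the wild type of the same background (vertical axis, estimate ± SE) for 5 of the genes and their paralogs, with the Rvb2-tagged deletions left and the Rvb1-tagged deletions right of the dotted line in each panel. MDH2 lies below MDH1 and MDH3 in every comparison, and in the Rvb2-tagged PIH1 deletion CIT1 is at -1.96 while CIT2 is at 0.16.

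The counts that follow are to be read beside those of all 5825 genes tested, of which 2053 were higher and 2001 lower in the Rvb2-tagged PIH1 deletion, 1389 and 1200 in the Rvb2-tagged TAH1 deletion, 1119 and 1092 in the Rvb1-tagged PIH1 deletion and 366 and 261 in the Rvb1-tagged TAH1 deletion. A count near these shares (69.6%, 44.4%, 38.0% and 10.8% called in either direction) is not a result about a list. The median log2 change over all genes lay between 0.00 and 0.02 in the 4 comparisons.

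Of 21 other genes of growth on compounds with 2 or 3 carbon atoms, 7 were higher and 7 lower in the Rvb2-tagged PIH1 deletion, 4 and 4 in the Rvb2-tagged TAH1 deletion, 1 and 6 in the Rvb1-tagged PIH1 deletion and 2 and 0 in the Rvb1-tagged TAH1 deletion. The 14 of 21 called in the Rvb2-tagged PIH1 deletion are close to the share over all genes, and the list's median log2 change there was -0.04. ADH2, the alcohol dehydrogenase that oxidises ethanol, was at 363.3 ± 17.8 normalized counts in the Rvb2-tagged PIH1 deletion against 112.0 ± 16.1 in its wild type (log2 change 1.70 ± 0.18 SE, adjusted p = 3.8e-07, limma). The carnitine acetyltransferases YAT2 (0.70 ± 0.08) and CAT2 (0.81 ± 0.14) were higher there too. Of 9 tested regulators of gluconeogenic genes, 4 were higher and 2 lower in the Rvb2-tagged PIH1 deletion, 3 and 1 in the Rvb2-tagged TAH1 deletion, 4 and 1 in the Rvb1-tagged PIH1 deletion and 0 and 3 in the Rvb1-tagged TAH1 deletion. The median over these regulators was 0.18 in the Rvb2-tagged PIH1 deletion. MIG2, a repressor related to Mig1, was higher in both Rvb2-tagged deletions (0.82 ± 0.07 for PIH1 and 0.92 ± 0.07 for TAH1) and in the Rvb1-tagged PIH1 deletion (0.55 ± 0.07), and was lower in the Rvb1-tagged TAH1 deletion (-0.23 ± 0.07). MIG3, another relative, was higher in the Rvb2-tagged PIH1 deletion (1.39 ± 0.13), and the activator RDS2 in the Rvb2-tagged TAH1 deletion (1.04 ± 0.10). SIP4 was too low to be tested.

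Of 10 genes of the Snf1 kinase and the Glc7-Reg1 phosphatase that opposes it, 4 were higher and 4 lower in the Rvb2-tagged PIH1 deletion, 2 and 4 in the Rvb2-tagged TAH1 deletion, 0 and 2 in the Rvb1-tagged PIH1 deletion and 0 and 0 in the Rvb1-tagged TAH1 deletion. The median of these kinase and phosphatase genes was -0.06 in the Rvb2-tagged PIH1 deletion. The kinase gene SNF1 (-0.55 ± 0.07 SE on the log2 scale) and its subunit GAL83 (-0.99 ± 0.09) were lower in the Rvb2-tagged PIH1 deletion, and the upstream kinase SAK1 was higher (0.66 ± 0.08). Of 10 genes of the GID ubiquitin ligase, which marks Mdh2, Fbp1 and Icl1 protein for destruction when glucose returns, 1 was higher and 8 lower in the Rvb2-tagged PIH1 deletion, 1 and 3 in the Rvb2-tagged TAH1 deletion, 0 and 3 in the Rvb1-tagged PIH1 deletion and 0 and 0 in the Rvb1-tagged TAH1 deletion. The GID genes had a median log2 change of -0.65 in the Rvb2-tagged PIH1 deletion, -0.21 in the Rvb2-tagged TAH1 deletion, -0.23 in the Rvb1-tagged PIH1 deletion and -0.22 in the Rvb1-tagged TAH1 deletion. UBC8, its ubiquitin-conjugating enzyme, was at 73.7 ± 9.29 in the Rvb2-tagged PIH1 deletion against 272.0 ± 28.6 in its wild type (-1.87 ± 0.14, adjusted p = 7.4e-09, limma), with VID30 (-1.24 ± 0.17) and RMD5 (-0.87 ± 0.11) also lower. Of 9 regulators and targets of the retrograde pathway other than CIT2, 3 were higher and 4 lower in the Rvb2-tagged PIH1 deletion, 0 and 4 in the Rvb2-tagged TAH1 deletion, 2 and 0 in the Rvb1-tagged PIH1 deletion and 1 and 0 in the Rvb1-tagged TAH1 deletion. Over the retrograde genes the median was -0.13 in the Rvb2-tagged PIH1 deletion. IDH2, a subunit of the mitochondrial isocitrate dehydrogenase, was lower in the Rvb2-tagged PIH1 deletion (-1.65 ± 0.14). It was called higher in the Rvb1-tagged PIH1 deletion by a narrow margin (0.36 ± 0.14, adjusted p = 0.047, limma). The Rvb1-tagged wild type was widely spread there, with 1049 to 1749 normalized counts against 1867 to 1927 in the deletion. Whether that IDH2 call holds without single libraries was not tested. ACO1, the aconitase, was lower in the Rvb2-tagged PIH1 deletion (-1.54 ± 0.13). Of the 4 genes for opposing steps of glycolysis, 1 was higher and 2 lower in the Rvb2-tagged PIH1 deletion, 1 and 1 in the Rvb2-tagged TAH1 deletion, 0 and 3 in the Rvb1-tagged PIH1 deletion and 0 and 2 in the Rvb1-tagged TAH1 deletion. Over these 4 the median was -0.12 in the Rvb2-tagged PIH1 deletion. PYK2, the minor pyruvate kinase, was lower in all 4 deletions. Its log2 changes were -2.44 ± 0.19 and -0.74 ± 0.19 in the Rvb2-tagged PIH1 and TAH1 deletions. With tagged Rvb1 they were -0.87 ± 0.19 and -0.64 ± 0.19. The Rvb1-tagged wild type was widely spread for PYK2, with 118 to 248 normalized counts. The Rvb1-tagged TAH1 deletion, with 117 to 129, overlapped it. Whether the PYK2 calls hold without single libraries was not tested.

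Marker genes of glucose level, stress and cell type were read in the same comparisons. Of 8 genes known to rise in low glucose 7 were tested, and 1 was higher and 4 lower in each Rvb2-tagged deletion, 2 and 3 in the Rvb1-tagged PIH1 deletion and 2 and 1 in the Rvb1-tagged TAH1 deletion. Their median log2 change was -1.56 in the Rvb2-tagged PIH1 deletion and -0.54 in the Rvb2-tagged TAH1 deletion, -0.33 in the Rvb1-tagged PIH1 deletion and -0.07 in the Rvb1-tagged TAH1 deletion. Their summed normalized counts lay between 2209 and 2321 in the Rvb2-tagged PIH1 deletion and between 7068 and 10233 in the Rvb2-tagged TAH1 deletion, against 12136 to 14367 in their wild type. With tagged Rvb1 the sums lay between 5213 and 7207 in the PIH1 deletion and between 7671 and 8794 in the TAH1 deletion, against 6064 to 11919 in their wild type, which both overlapped. HXK1, a hexokinase gene on this list, had 140.7 ± 9.29 in the Rvb2-tagged PIH1 deletion against 6432 ± 990.5 in the wild type. It was a large part of the sum in that wild type, so the sum does not weigh the listed genes alike.

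Of 5 genes high in glucose, 1 was higher and 3 lower in each Rvb2-tagged deletion, 0 and 4 in the Rvb1-tagged PIH1 deletion and 0 and 1 in the Rvb1-tagged TAH1 deletion. The median log2 change was -0.43 and -0.41 in the Rvb2-tagged PIH1 and TAH1 deletions, and -0.67 and -0.16 in the Rvb1-tagged ones. Their sum lay between 82650 and 100427 in the Rvb2-tagged PIH1 deletion and between 111745 and 116228 in the Rvb2-tagged TAH1 deletion, against 137681 to 165592 in their wild type. It lay between 102371 and 105841 in the Rvb1-tagged PIH1 deletion and between 123670 and 133264 in the Rvb1-tagged TAH1 deletion, against 140217 to 155302. Such a sum follows the abundant genes of its list. ADH1, lower in the Rvb2-tagged PIH1 deletion, averaged 59270 ± 7341 in the Rvb2-tagged wild type. HXT1, which was higher in that deletion, averaged only 1251 ± 122.2 in the same wild type. Of 8 general stress genes, 1 was higher and 5 lower in the Rvb2-tagged PIH1 deletion, 1 and 0 in the Rvb2-tagged TAH1 deletion, 2 and 0 in the Rvb1-tagged PIH1 deletion and 1 and 1 in the Rvb1-tagged TAH1 deletion. Medians of the stress genes were -1.96 and 0.15 in the Rvb2-tagged PIH1 and TAH1 deletions, and 0.12 and 0.06 in the Rvb1-tagged ones. Their sum lay between 1941 and 2095 in the Rvb2-tagged PIH1 deletion and between 4653 and 7027 in the Rvb2-tagged TAH1 deletion, against 5755 to 6402 in their wild type. The sum in the Rvb2-tagged TAH1 deletion overlapped that of the wild type. It was widely spread with tagged Rvb1 and overlapped the wild type, between 3485 and 8388 in the PIH1 deletion and between 2205 and 9962 in the TAH1 deletion, against 1484 to 5393 in the wild type.

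Of 9 genes of alpha cells and meiosis, which haploid a cells should keep low, 8 were tested. In the Rvb2-tagged PIH1 deletion 5 were higher and 2 lower, with 2 and 1 in the Rvb2-tagged TAH1 deletion, 0 and 2 in the Rvb1-tagged PIH1 deletion and 0 and 1 in the Rvb1-tagged TAH1 deletion. Medians over these genes were 0.53 and 0.25 in the Rvb2-tagged PIH1 and TAH1 deletions, and -0.18 and -0.02 in the Rvb1-tagged ones. Their sum lay between 1003 and 1130 in the Rvb2-tagged PIH1 deletion and between 774 and 784 in the Rvb2-tagged TAH1 deletion, against 681 to 698 in their wild type. With tagged Rvb1 it lay between 596 and 648 in the PIH1 deletion and between 629 and 685 in the TAH1 deletion, against 658 to 706 in the wild type. No gene of these lists was at 0 in all 3 libraries of a group. The part of growth stage, stress or cell type in the changes of the 8 genes was not tested.

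Among the 8, PCK1 and MLS1 had the most alike patterns over the 18 libraries, with a Pearson r of 0.76 between log2 values, followed by ICL1 and ACS1 with 0.71 and PCK1 and ACS1 with 0.70. MDH2 and ICL1 were the most opposed pair (-0.73), followed by CIT2 and JEN1 (-0.63). Among all other genes tested, RIB4 (r = 0.97) and URA1 (0.96) were most like MDH2, YIL058W and ECM22 (0.94 each) most like ICL1, and RED1 (0.93) and ABZ1 (0.92) most like ACS1. SEO1 (0.90) and snR45 (0.89) were most like PCK1, CCE1 (0.89) and ECM3 (0.88) most like JEN1, PTR3 and NEL1 (0.88 each) most like FBP1, VMA1 and EDC3 (0.88 each) most like CIT2, and ARO80 (0.88) and GAL1 (0.87) most like MLS1. These correlations are over 18 libraries in 6 groups, which share their group differences, and are given as a description.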

How the data were processed

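RNA was measured in 18 libraries, in 6 groups of 3. The authors deposited normalized counts (unit: signal), that is, reads of each gene scaled by 1 divisor for each library and then rounded. The authors also deposited FPKM values (unit: score), likewise rounded. The divisors are unknown, so no count test was run. The submitters' processing notes name TopHat2 2.0.3, DESeq2 1.6.3 and sacCer3. Annotation, counting tool and strand setting are not given in the sources. Library sums were 4829249 to 5412654 normalized counts after the authors' scaling, so depth is unknown, and no 2 libraries agreed (at least 6278 features differed between any 2).

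The test was limma 3.58.1 (R 4.3.3). It was run on log2 of the normalized count with a pseudocount of 1, which understates the change of low genes, for the 5825 features with a mean of at least 10. A single fit to the means of 6 groups, with a trend of variance on abundance, gave 9 contrasts, two-sided, with Benjamini-Hochberg adjustment over all features tested and a threshold of 0.05. The method was tested on simulated data. Errors of log2 changes are SE of the fit, and of counts SD, with n = 3. The labels call the replicates biological without saying what was separate, so p-values cover the spread among these libraries. Groups follow the sample titles.

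Positions and sequences came from the reference of the same build, with Biopython 1.88. Lists beside the 8 genes were the paralogs, other genes of growth on C2 and C3 compounds, regulators, Snf1 and phosphatase genes, GID genes, retrograde genes, opposing glycolytic steps, low glucose, high glucose, stress, and alpha-cell and meiosis genes. The named genes are the 8, the paralogs, the deleted and tagged genes, at most the 3 genes per other list with the smallest adjusted p in a deletion comparison, and per member the 2 genes with the highest correlation. SIP4 is named as the regulator left untested. Members and lists were chosen with earlier results of these data known. Alternatives were another pseudocount, filter, scaling, table or set of libraries in the fit, library weights, replicate number as a block, and each library left out in turn.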

Additional observations from a re-analysis of the deposited data

Results flagged for a closer look

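For 7 of the 8 genes the change upon PIH1 deletion differed between the Rvb2-tagged and the Rvb1-tagged background by the test of the difference itself (log2 change with tagged Rvb2 minus that with tagged Rvb1, ± SE, limma). The difference was -1.63 ± 0.28 for MDH2 (adjusted p = 0.00017), 1.75 ± 0.41 for PCK1 (adjusted p = 0.002), 0.65 ± 0.10 for ICL1 (adjusted p = 5e-05), 1.44 ± 0.39 for MLS1 (adjusted p = 0.0054), -0.64 ± 0.12 for CIT2 (adjusted p = 0.00034), 1.08 ± 0.16 for ACS1 (adjusted p = 3.9e-05) and 0.80 ± 0.22 for JEN1 (adjusted p = 0.0055). ACS1 is the 1 gene of the 8 called in both backgrounds with opposite signs. For the TAH1 deletion the change of MDH2 differed, by -2.07 ± 0.28 (adjusted p = 1.8e-05). Of all genes tested, 50.3% differed for the PIH1 deletion and 24.5% for the TAH1 deletion. Genes with a mean count from 10 to 50, the range of PCK1 and MLS1, shifted as a class. For the PIH1 deletion 30.5% of these 531 genes were called higher and 4.71% lower, with a median difference of 0.52. The part of low abundance in the differences of PCK1 and MLS1 was not tested.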

How the results depend on the processing

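The 8 genes were refitted in 9 comparisons under 10 other settings and with each library left out in turn. Of 1230 values, 1193 kept their side of the threshold, 14 lost a call and 23 gained one. The sign differed in 48 values, all of them uncalled under both settings, and 0 called values changed sign. Library weights, whose estimation stopped before it converged, raised the number of the 8 genes called from 3 to 7 in the Rvb2-tagged TAH1 deletion, from 0 to 3 between the wild types and from 1 to 4 in the difference of TAH1 effects. Leaving out 1 library gave 1 to 2 genes in that difference. No pairing of the libraries by replicate number was detected: correlations of same-numbered deviations ran from -0.38 to 0.23, and in 0 of 7 comparisons was every pair over 0.1. With groups of 3 libraries this check cannot show that there was no pairing. With the replicate block 4 of the 8 genes were called in the Rvb2-tagged TAH1 deletion, CIT2 being the one added (0.21, adjusted p = 0.0459), and the block changed no other call of the 8. FBP1 in the Rvb1-tagged PIH1 deletion lost its call with only the libraries compared in the fit (adjusted p = 0.0571), and JEN1 in the difference of PIH1 effects lost its call with the FPKM table (adjusted p = 0.0508). CIT2 in the Rvb2-tagged PIH1 deletion was called with quantile normalization (0.21, adjusted p = 0.032). A mean of at least 50 left PCK1 and MLS1 untested.

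Counts over all genes moved more. In the Rvb1-tagged TAH1 deletion 627 genes were called, against 2368 with library weights, 74 with only the libraries compared and 296 to 1827 with 1 library left out, the highest without replicate 2 of the wild type. In the Rvb1-tagged PIH1 deletion 2211 were called against 1277 with only the libraries compared. Between the wild types 12 were called, against 0 to 1151 under the alternatives, and in the difference of TAH1 effects 1426, against 2506 with library weights. Quantile normalization turned the split of calls into 1180 higher and 1533 lower in the Rvb2-tagged TAH1 deletion (1389 and 1200 otherwise), 267 and 320 in the Rvb1-tagged TAH1 deletion (366 and 261) and 2042 and 1664 for PIH1 against TAH1 deletion with tagged Rvb2 (1674 and 1955). The cause was not tested. Rounded counts near 20 to 40 limit the precision of PCK1 and MLS1.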
